A study of Mus musculus with 16 samples.

Results

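Killer lectin-like receptors and cytotoxic granule proteins were followed through 38 genes, read by 56 array probes, in whole lungs of female mice. The arrays gave usable signal for 25606 gene names in all. The probes were chosen by name and not by a measured difference, but the set was picked with earlier results of these data known. Every non-control probe whose gene name starts with Klr or Gzm was taken, together with the probes for Ncr1, Prf1, Nkg7, Eomes and Fasl, which gave 72 candidates for 48 genes. A candidate stayed in where 4 or more of the 16 arrays had it well above background by the scanner software's own call, a limit that left 37046 of all 55681 probes. Of the kept probes, 45 (34 genes) were well above background on all 16 arrays and the other 11 on 5 to 15 arrays. The kept probe nearest the limit was a Klrc1 probe on 5 arrays, and the nearest dropped ones were an Eomes and a Klrb1 probe on 3 arrays each. Gzmc, Gzmd, Gzme, Gzmf, Gzmg, Gzmn, Klra19, Klrb1-ps1, Klrc2 and Klri1 had no kept probe.

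The lungs came from ARF-DTR transgenic mice, in which control sequences of the senescence-associated Arf gene drive a receptor for diphtheria toxin (DT), and from wild type (WT) mice without that receptor. The groups were 4 untreated ARF-DTR samples at 2 months of age, 4 ARF-DTR samples at 12 months given phosphate-buffered saline (PBS), 4 ARF-DTR samples at 12 months given DT, 2 WT samples at 12 months given PBS and 2 WT samples at 12 months given DT. Injections went into the peritoneum every 2 weeks for 1 month, and each DT dose was 50 microgram/kg. The 2-month mice received no injection, so age and the PBS course go together. The labels give no strain. They also do not say that the samples come from different mice, and p-values then reflect only sample-to-sample spread, part of which may be technical. In the free text of 3 WT samples the agent differs from the title, source and treatment fields, and those 3 fields were used.

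Natural killer cells are lymphocytes that kill infected or altered cells, and most members of the set are best known from them. Ly49 receptors (Klra genes) bind class I molecules of the major histocompatibility complex and mostly inhibit killing, although a few, such as Klra4 and Klra8, activate it. NKR-P1 receptors (Klrb genes) bind C-type lectin-related ligands, and CD94 (Klrd1) pairs with NKG2 proteins (Klrc genes) to sense a non-classical class I molecule. Killing follows when perforin (Prf1) opens the way for granzymes from the granules, and cytotoxic T cells share this machinery. In RNA of whole lung, fewer cells of a type and less RNA per cell cannot be told apart.

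The arrays lay on 2 slides, which bears on every comparison. The 2-month and 12-month PBS groups of ARF-DTR mice shared slide 1, in separate rows, and the 12-month DT group shared slide 2 with all WT samples. The DT effect in ARF-DTR mice therefore crosses slides, and DT and slide cannot be told apart there. The 75th percentile of signal was 873 to 1088 intensity units on slide 1 and 613 to 725 on slide 2, and no spot was saturated. Values below are log2 signal minus the 75th percentile of that array, differences are log2 differences, and adjusted p is from limma over all 37046 probes. The lung label was borne out by its markers, since all 12 listed epithelial genes were measured and the median of their probes lay between 6.05 and 6.44 on every array.

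At 12 months, 14 of 27 Ly49 probes and the probes for NK1.1 (Klrb1c) and NKp46 (Ncr1) were lower in ARF-DTR lung than at 2 months. No probe for a granzyme or perforin fell past the threshold, although Gzma, at -1.09, differed by as much as called receptors did. Among the 45 probes well above background on all arrays, 18 fell with an adjusted p under 0.05 and none rose, whether judged by adjusted p or by an unadjusted p under 0.05, where 27 were lower. Their median difference was -0.63, against -0.03 over all probes. The share of all probes at the unadjusted limit was not counted. In the whole kept set 21 probes for 14 genes fell and 1 rose. Of all probes on the array, 5.14% passed the threshold in this comparison, 2.98% lower and 2.16% higher. The 2 groups did not overlap for 22 lower and 1 higher kept probe, against 8.01% and 4.47% of all probes. The plot of age differences by role class shows where the calls lie.

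**Figure D1:**
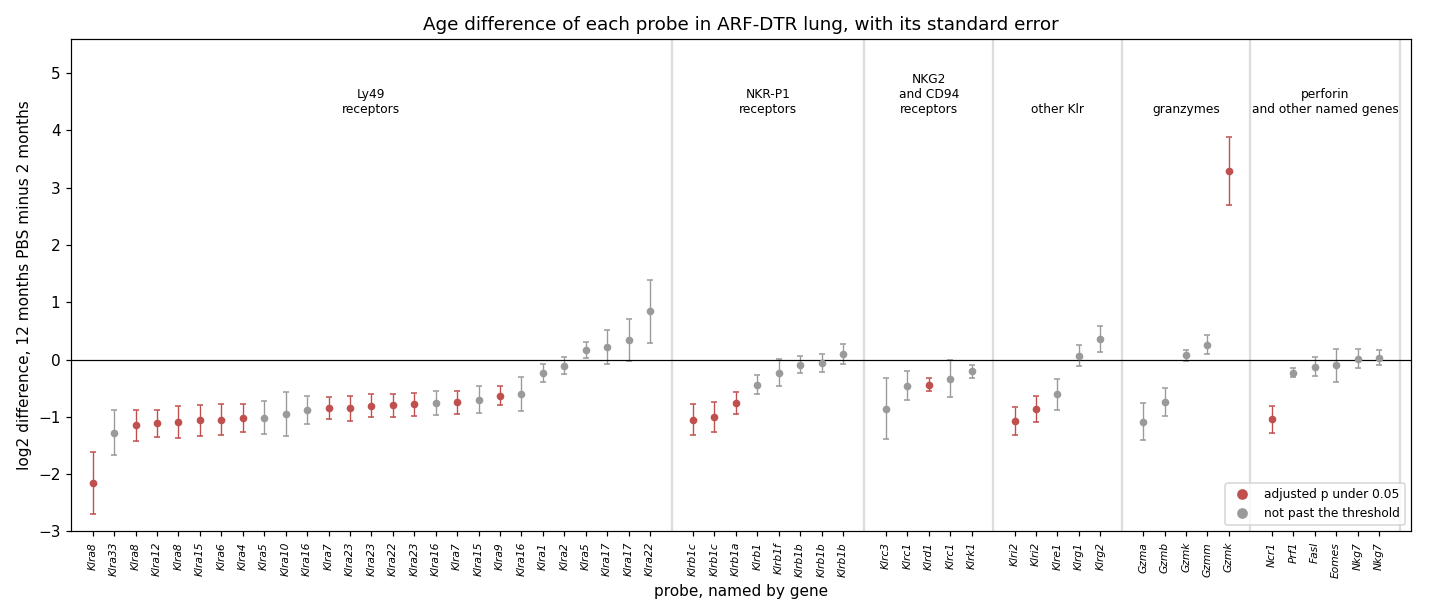
Log2 difference between 12 months with PBS and 2 months in ARF-DTR lung for each of the 56 kept probes, with its standard error, ordered within 6 role classes. Red points passed an adjusted p of 0.05. The red points below 0 are mostly Ly49 probes, and the single red point above 0 is a Gzmk probe at 3.29.

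The size of this count depended on single samples. Without replicate 1 or 2 of the 2-month group, or replicate 3 of the PBS group, only the Gzmk probe passed. Of all probes 3.04%, 2.95% and 3% passed in these fits. Without replicate 4 of the 2-month group 3 probes passed (3.17% of all probes), and without replicate 1 or 2 of the PBS group 4 passed (3.45% and 5.42%). With only the 8 arrays of the 2 groups in the fit, 4 of the 56 passed, and with dim probes left in, 5 of 72. Shares of all probes in these last 2 fits are not given here. The median difference stayed between -0.83 and -0.55 whichever sample was left out, and no called member changed direction under any setting.

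Ly49 receptors made up 14 of the 21 lower calls, from 27 kept probes, and their median difference was -0.81. Klra8, the activating receptor Ly49H, had 3 probes, all lower. Its probe A_55_P2004527 (mm9 chr6:130065310-130065369, minus strand) gave 0.62, 0.87, 0.32 and 0.75 at 2 months and -0.56, -0.80, -0.96 and 0.26 at 12 months with PBS. The groups did not overlap, although replicate 4 of the PBS group lay just below the lowest 2-month value. The difference was -1.15 ± 0.28 (SE, 4 against 4 samples; limma adjusted p = 0.0299), a 2.22-fold lower signal. The neighbouring probe A_55_P2004526 differed by -1.09 (limma adjusted p = 0.0394). The third, A_66_P121933, joins exons of the same gene and was well above background on 4 of 4 arrays at 2 months but 1 of 4 with PBS, so its difference of -2.15 rests on dim signal.

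Klra4, the activating receptor Ly49D, read 0.55, 0.93, 0.12 and 0.51 at 2 months and -0.56, -0.71, -0.73 and 0.02 with PBS. All 4 older values lay under all 4 younger ones, with a difference of -1.02 ± 0.24 (SE, n = 4 each; limma adjusted p = 0.029). Klra12 had the smallest adjusted p of the family, with a difference of -1.11 ± 0.24 (SE; limma adjusted p = 0.0177). It read -1.78, -1.58, -2.45 and -2.12 at 2 months and -3.11, -3.23, -3.49 and -2.56 with PBS, again without overlap. Klra9 had the smallest called difference of the family, -0.63. The probes named Klra6, Klra7, Klra15, Klra22 and Klra23 that passed lay between, from -0.75 to -1.06.

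The other 13 Ly49 probes did not pass. Klra16 missed the threshold on all 3 probes (-0.60, -0.76 and -0.87, the smallest limma adjusted p = 0.0508), as did the second Klra15 probe (-0.70). Klra33 (-1.28) and Klra10 (-0.95) were well above background on 2 and 1 of the 4 PBS arrays. Probes of 1 gene name could differ: Klra5 gave -1.02 on A_55_P2077958 and 0.17 on A_51_P104939, whose positions overlap. The 2 Klra22 probes gave -0.80 and, on the dim A_55_P2170350, 0.84. Klra1 (-0.24), Klra2 (-0.11) and both Klra17 probes (0.22 and 0.34) lay nearer to 0. Klra2 had a 95% interval of -0.43 to 0.21, which leaves out a change of the size seen for Klra4.

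Ly49 genes are close copies, and their probes share sequence. Each line below is the 30-base stretch, 5′ to 3′ as in the array files, where 6 probes that fell with age align with each other. The lines are shown because they limit how far a signal can be tied to 1 gene. Capitals mark bases that differ from the Klra7 probe A_55_P2004541.
Klra7 A_55_P2004541: agagactggataaatttcctcattgactct
Klra23 A_55_P1997997: agagactggataaatttcctcattgactct
Klra23 A_55_P1998011: agagactggataaattCcctcattgactct
Klra4 A_55_P2004536: agagaTtggaCaaattCcctcattgactct
Klra15 A_52_P514407: agagaTtggaCaaattCcctcattgactct
Klra6 A_55_P2004547: agaAactggataaatttcctcattAactTt

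In this window the Klra23 probe A_55_P1997997 was identical to the Klra7 probe, and the Klra4 and Klra15 probes were identical to each other. Over the whole kept set, 14 of the 27 Ly49 probes shared a run of at least 15 identical bases with a probe named for another gene, the longest run being 42 bases. Of those 14, 8 fell with age. Among the 13 without such a run, 6 fell: Klra12, Klra9, Klra23 A_55_P2048448 and all 3 Klra8 probes. No kept probe outside the Ly49 family shared such a run with another gene.

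The names are those of the array design, and 44 of the 56 kept probes matched a RefSeq transcript by accession, all under the same symbol. The names Klra12, Klra15, Klra22 and Klra33 are not symbols in the RefSeq mouse table used. On mm9 the probe named Klra15 (A_55_P2151638) and the dim Klra22 probe overlap on chr6, so names in this family are not separate loci. Of the kept probes, 42 lie on chromosome 6, which carries the natural killer gene complex.

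The NKR-P1 class had 3 of its 8 probes lower with age. Klrb1c, which encodes the natural killer marker NK1.1, read -1.02, -0.66, -1.44 and -1.42 at 2 months and -2.08, -2.62, -2.29 and -1.55 with PBS on probe A_55_P1979147. The groups did not overlap, and the difference had a 95% interval of -1.57 to -0.43 (n = 4 each; limma adjusted p = 0.0461). Its second probe, A_52_P599514, differed by -1.05. Klrb1a differed by -0.76 (limma adjusted p = 0.0323). The 3 Klrb1b probes, for an inhibitory member of the family, gave -0.09, -0.07 and 0.10, and none passed, nor did Klrb1 (-0.44) and Klrb1f (-0.23).

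In the NKG2 and CD94 class 1 of 5 probes fell. Klrd1 (CD94) read 0.22, 0.54, -0.06 and 0.29 at 2 months and -0.25, -0.39, -0.09 and -0.05 with PBS. The lowest young value lay within the older range, and the difference was the smallest of all those called, -0.44 ± 0.11 (SE, n = 4 each; limma adjusted p = 0.0395). Klrk1, the activating receptor NKG2D, differed by -0.21 (limma adjusted p = 0.365), with a 95% interval of -0.46 to 0.04. Klrc1 (NKG2A) gave -0.46 and -0.34 on its 2 probes, and Klrc3 was not well above background on any PBS array.

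Among the other Klr genes both Klri2 probes fell, by 1.08 and 0.86 on the log2 scale (limma adjusted p = 0.0239 and 0.0417). The receptor that Klri2 encodes pairs with Klre1, whose difference was -0.61 (limma adjusted p = 0.247). Klrg1, a receptor for cadherins found on mature natural killer and effector T cells, differed by 0.06, with a 95% interval of -0.34 to 0.47, and Klrg2 by 0.36 (limma adjusted p = 0.422).

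Ncr1, which encodes the natural killer receptor NKp46, was the only one of the 6 probes for perforin and the other separately named genes to fall. It read -2.26, -2.19, -2.76 and -2.39 at 2 months and -3.35, -3.64, -3.97 and -2.84 with PBS. The groups did not overlap, with a difference of -1.05 ± 0.23 (SE, n = 4 each; limma adjusted p = 0.0214), a 2.07-fold lower signal. Prf1 differed by -0.23 ± 0.07 (SE; limma adjusted p = 0.0983), also without overlap. Nkg7, a granule membrane protein of natural killer and T cells, gave 0.02 and 0.03 on its 2 probes. Eomes, a transcription factor of natural killer and memory T cells, gave -0.10, and the death ligand Fasl gave -0.13.

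**Figure D2:**
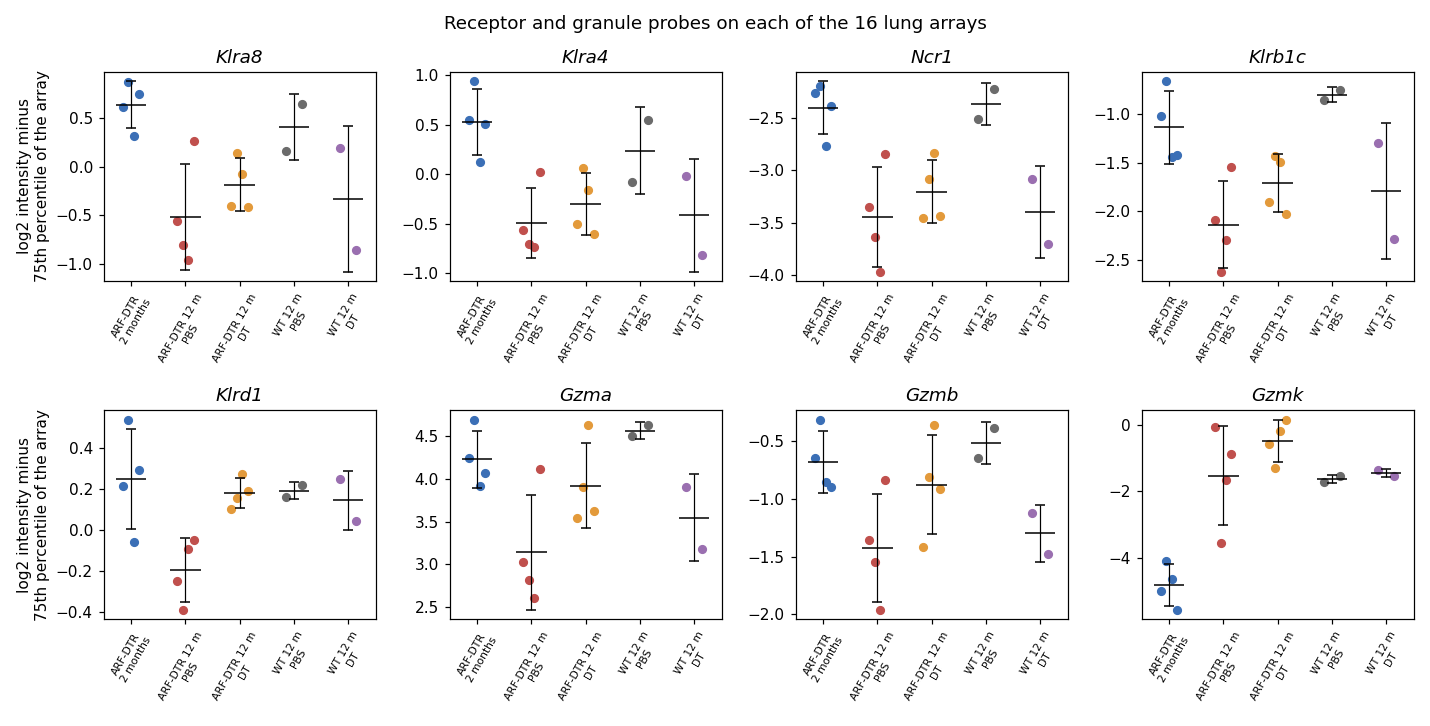
Log2 signal minus the 75th percentile of the array for 8 probes on each of the 16 arrays, by group. Each point is an array, the horizontal line is the group mean and the bar 1 SD. Replicate 4 of the 12-month PBS group is the highest of its group for Klra8, Klra4, Ncr1, Klrb1c, Klrd1, Gzma and Gzmb, and Gzmk is lowest in all 4 arrays of the 2-month group.

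The granzymes did not move together. Gzma, the granzyme typical of natural killer cells, read 4.24, 4.69, 3.92 and 4.07 at 2 months and 3.03, 2.82, 2.60 and 4.12 with PBS. In the PBS group 3 of the 4 samples lay below every young sample and the fourth lay within the young range. The difference of -1.09 ± 0.32 (SE, n = 4 each) did not pass (limma adjusted p = 0.0744). It passed with each array's median subtracted (limma adjusted p = 0.0455) and without replicate 4 of the PBS group (0.0156), and its adjusted p reached 0.187 without replicate 2 of the 2-month group. Gzmb had a difference of -0.75 (limma adjusted p = 0.103) and the same sample highest among the PBS samples. Gzmm differed by 0.26 (limma adjusted p = 0.454).

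Gzmk, a granzyme found mainly in T cells, rose on 1 of its 2 probes. Probe A_55_P2042331 (mm9 chr13:113961816-113961875, minus strand) read -5.02, -4.09, -4.65 and -5.57 at 2 months and -0.07, -3.55, -1.66 and -0.88 with PBS. The groups did not overlap, and the difference of 3.29 ± 0.59 (SE, n = 4 each; limma adjusted p = 0.00683) was a 9.79-fold higher signal. It was well above background on 3 of the 4 young arrays, and it passed in all 15 alternative settings that could test it. The other probe, A_66_P140238 (chr13:113970774-113971087, minus strand), differed by 0.07 ± 0.09 (SE; limma adjusted p = 0.734). The first 30 bases of each are given because the probes read different stretches of the locus.
Gzmk A_55_P2042331: cgttcatcctaaataaaatgtggacgtctg
Gzmk A_66_P140238: gctctggtttccctggtggctggcgtttat

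The probe that rose is assigned by the array design to an Ensembl transcript and the other to the RefSeq transcript. The 2 probes share no identical run longer than 6 bases. Which transcripts of the locus each measures was not tested.

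Within groups, the same samples stood high or low across the set. Replicate 4 of the PBS group was the highest of its group for 40 of the 56 kept probes, with a median of 0.42 above the group mean. In the 2-month group replicate 2 was highest for 44 probes and replicate 3 lowest for 39. Over all probes on the array the medians of these samples lay within 0.03 of their group means. The heat map of members by array shows these columns.

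**Figure D3:**
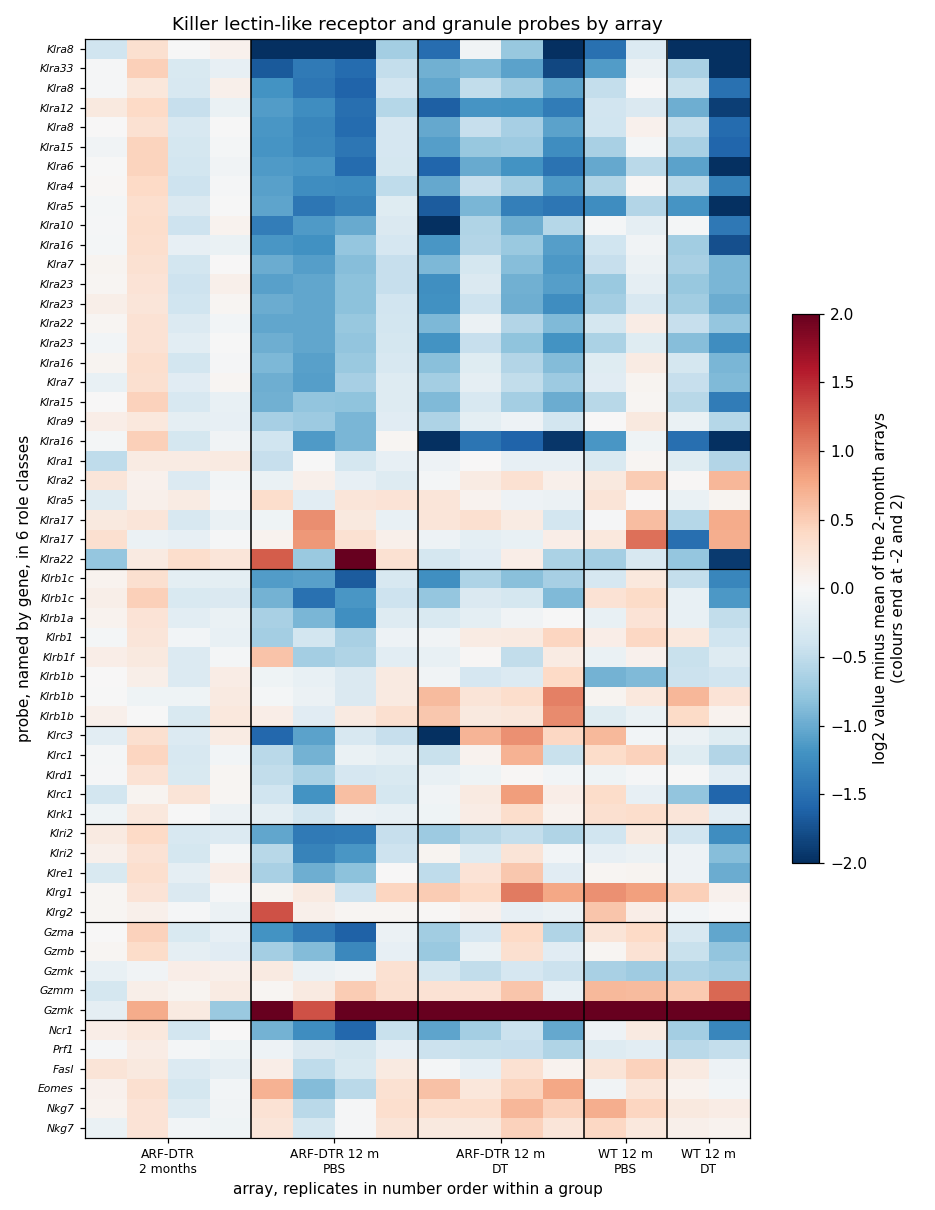
Each row is a kept probe and each column an array; colour is the log2 value minus the mean of the 2-month arrays, with colours ending at -2 and 2. Rows are in 6 role classes and columns in 5 groups. The fourth column of the 12-month PBS group is paler than its neighbours through most Ly49 rows, and the last row of the granzyme class, Gzmk A_55_P2042331, is red in every 12-month array.

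Marker lists of other cells were read in the same comparison, in which 2.16% of all probes were higher and 2.98% lower. T cell markers, which matter because T cells also carry Gzmk, Nkg7 and Prf1, had a median difference of 0.26 over 16 probes for 12 genes, with 1 called, the signalling adaptor Lat at 0.88 (limma adjusted p = 0.00102). Their summed log2 level ranged from 3.99 to 4.28 at 2 months and from 4.17 to 4.62 with PBS, and Cd3d, Cd3e and Cd3g gave 0.18, 0.23 and 0.41, none past the threshold. B cell markers had a median of 0.59 over 10 probes, all positive, and 2 were called higher, among them the kinase Blk (0.67). Endothelial markers had 2 of 11 probes lower, Kdr (-0.43) and Pecam1 (-0.27). The second Kdr probe, with values of 3.22 to 3.51 at 2 months and 3.24 to 3.34 with PBS, was not called. None of the 16 epithelial probes was called. The part of these cells in the receptor differences was not tested.

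The lists of genes that work with these receptors are read against the 5.14% of all probes called with age. Of 19 probes for receptor adaptors and signalling proteins 2 were called with age, both for the kinase Syk and both higher (0.48 and 0.67). Of 22 probes for transcription factors of natural killer cells 3 were called, all higher: Nfil3 (1.30; limma adjusted p = 0.000132), Tox (0.90) and Runx3 (0.62). The second Runx3 probe was not called, with values of -3.56 to -3.22 at 2 months and -3.70 to -3.08 with PBS. The second Tox probe was not called either. Nfil3 is needed for natural killer cell development and is also a clock-controlled gene. Among 37 probes for other natural killer receptors, Il12rb1, a subunit of the interleukin-12 receptor, rose by 0.98 and the integrin Itga1 fell by 0.30. Of 22 probes for granule proteins only Serpina3g, a protease inhibitor, was called (1.15). Of 16 cytokine probes none passed.

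Homing receptors had 4 of 17 probes higher with age: Cxcr3 (1.28; limma adjusted p = 0.00213), Cxcr6 on both probes (1.13 and 1.05) and the integrin Itgal (0.40). The other Itgal probes were not called. A_55_P2184606 read -2.96 to -2.86 at 2 months and -3.04 to -2.70 with PBS. A_55_P2184601 read -0.79 to -0.44 at 2 months and -0.45 to -0.10 with PBS. Cxcr3 and Cxcr6 are carried by effector and resident T cells as well as by natural killer cells. Of 29 probes for ligands of the receptors 4 were called. The class I gene H2-Q1 was higher (0.54), while the Klrg1 ligands Cdh4 (-0.32) and Cdh2 (-0.43 and -0.60) were lower.

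Promoters of members that fell together are given for Klra4 and Klra8, with Ncr1 as the receptor outside the family. Each run is the 250 bases before the RefSeq start, GRCm38.p6, 5′ to 3′ in the direction of the gene. Capitals mark matches, on either strand, to TGTGGT (RUNX), TCACACC (T-box), GGAAGT (ETS) or TTCNNNGAA (STAT5).
Klra4 (chr6:130067272-130067521, minus strand): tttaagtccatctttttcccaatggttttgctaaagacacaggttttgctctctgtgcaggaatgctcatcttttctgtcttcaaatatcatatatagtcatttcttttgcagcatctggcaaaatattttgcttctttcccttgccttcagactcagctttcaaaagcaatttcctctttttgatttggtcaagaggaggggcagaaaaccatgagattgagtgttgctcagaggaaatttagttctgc
Klra8 (chr6:130129899-130130148, minus strand): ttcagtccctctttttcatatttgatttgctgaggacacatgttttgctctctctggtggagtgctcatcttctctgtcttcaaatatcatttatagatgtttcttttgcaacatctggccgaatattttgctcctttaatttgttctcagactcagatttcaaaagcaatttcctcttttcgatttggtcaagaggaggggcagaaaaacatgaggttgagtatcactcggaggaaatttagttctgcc
Ncr1 (chr7:4337465-4337714, plus strand): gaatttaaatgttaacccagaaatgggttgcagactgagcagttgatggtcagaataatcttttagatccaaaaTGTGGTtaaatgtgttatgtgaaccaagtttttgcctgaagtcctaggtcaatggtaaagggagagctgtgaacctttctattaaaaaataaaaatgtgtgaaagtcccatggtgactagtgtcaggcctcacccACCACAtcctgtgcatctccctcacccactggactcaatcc

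The Klra4 and Klra8 windows were identical at 212 of 250 positions when aligned, and neither held any of the 4 motifs. The Ncr1 window held the RUNX letters on each strand. Promoters were found for 29 of the 38 member genes, 35 windows in all. The RUNX letters stood in 14 of these 35, against 14% of 32851 promoters in the table, but in only 1 of the 12 Ly49 windows. The T-box, ETS and STAT5 letters stood in 3, 7 and 5 of the 35 windows, against 3.33%, 19.7% and 7.02% of all promoters. A match describes these letters only.

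With DT, 6 receptor probes of ARF-DTR lung were higher than with PBS and a Klra16, a Gzmk and the Prf1 probe were lower, in a comparison in which much of the array moved. Of the 56 kept probes 9 passed, 6 higher and 3 lower, while 25.8% of all probes passed, 14.3% higher and 11.5% lower; the member share was not above that background. Because the 2 groups lay on different slides, a DT difference here is a slide difference as well.

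The 6 higher probes were all receptors. Klri2 (A_55_P2032489) read -4.36, -5.14, -4.97 and -4.22 with PBS and -3.75, -4.07, -3.54 and -3.86 with DT. The groups did not overlap, with a difference of 0.87 ± 0.22 (SE, n = 4 each; limma adjusted p = 0.0139). Klrb1b (A_55_P1964325, 0.63), Klrb1 (0.62), Klrb1a (0.62), Klrg1 (0.62) and Klrd1 (0.38) were the others. The other Klrb1b probes gave 0.37 and 0.01 and the second Klri2 probe 0.48, and none of these passed. The lower ones were Klra16 on A_55_P1958039 (-1.19), Gzmk on A_66_P140238 (-0.47) and Prf1 (-0.26). The Prf1 difference shrank to -0.08 with each array's median subtracted (limma adjusted p = 0.477). It also lost its call without replicate 1 or 4 of the PBS group or replicate 4 of the DT group. For Klra16 the other 2 probes gave -0.02 and 0.13, and for Gzmk the other probe gave 1.06, so in neither gene did the probes move alike.

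Of 27 Ly49 probes only that Klra16 probe passed, and the class median was -0.02. Klra4 differed by 0.19, with a 95% interval of -0.33 to 0.72, and Klra8 A_55_P2004527 by 0.33, with an interval of -0.27 to 0.92. Gzma read 3.54, 3.90, 4.62 and 3.62 with DT, a difference of 0.78 ± 0.32 (SE; limma adjusted p = 0.0942) from PBS, and the groups overlapped. Gzmb differed by 0.55 (limma adjusted p = 0.115). Ncr1 differed by 0.25, with an interval of -0.26 to 0.75.

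Without replicate 4 of the DT group 4 probes passed in place of 9. Subtracting each array's median in place of its 75th percentile moved the median of all probes from 0.01 to 0.19 and gave 16 higher and 2 lower member probes, and another background correction gave 18 and 3. Shares of all probes in these fits are not given here, so the member counts have no background beside them.

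Counts for the partner lists in this comparison stand against the same 14.3% of all probes higher and 11.5% lower. Granule proteins had 12 of 22 probes higher and 3 lower, led by cathepsin C (Ctsc, 0.79), which activates granzymes, and Serpinb6b (0.71). Ligands had 12 of 29 higher and 2 lower, among them B2m (0.43), the light chain of class I molecules, and H60c (0.88), a ligand of NKG2D. Of 19 adaptor probes 3 were higher: Tyrobp (0.53) and Fcer1g (0.48), which carry the signals of activating receptors, and Sh2d1b1 (0.66). Of these, Tyrobp, Fcer1g and Ctsc are also abundant in myeloid cells, and macrophage markers had 6 of 15 probes higher with a median of 0.40. Epithelial markers had 11 of 16 higher with a median of 0.36, and their part in these differences was not tested.

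In WT mice, which lack the DT receptor, DT was compared with PBS on 1 slide with 2 samples in each group. No member passed, and 0.2% of all probes did. At an unadjusted p under 0.05 limma had 15 members lower and 1 higher, and the share of all probes at that limit was not counted. Of the 56 differences 50 were negative, with a median of -0.55 against -0.03 over all probes. Without replicate 2 of the DT group the member median was -0.29 and 1 member passed. Wherever a WT sample is left out, its group has 1 array, which the fit assumes to vary like the other groups. The 2 samples with DT lay below both with PBS for 34 members and above both for 4, where 25.3% and 17.7% of all probes were separated in those directions.

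Klra12 came nearest, with -2.37 and -2.28 with PBS and -2.96 and -3.86 with DT. The difference was -1.09, with a 95% interval of -1.82 to -0.36 (limma adjusted p = 0.19). Ncr1 read -2.51 and -2.23 with PBS and -3.09 and -3.71 with DT, a difference of -1.03 (limma adjusted p = 0.205). Gzma read 4.49 and 4.63 with PBS and 3.90 and 3.18 with DT, a difference of -1.02 (limma adjusted p = 0.367). For these 3 genes both DT samples lay under both PBS samples. The 3 Klrb1b probes went the other way (0.34, 0.42 and 0.51), also without overlap. Replicate 2 of the DT group was the lower of its pair for 47 of the 56 probes. Neutrophil markers had a median of -1.20, platelet markers -0.96 and macrophage markers 0.58 in the same comparison, with no marker called. The platelet value came from replicate 1 of the DT group, with a summed log2 level of 4.42 against 6.57 in replicate 2 and 6.37 to 6.56 with PBS. The summed log2 level of neutrophil markers was 8.71 to 8.84 with PBS and 7.36 to 8.51 with DT, and the part of these cells was not tested.

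**Figure D4:**
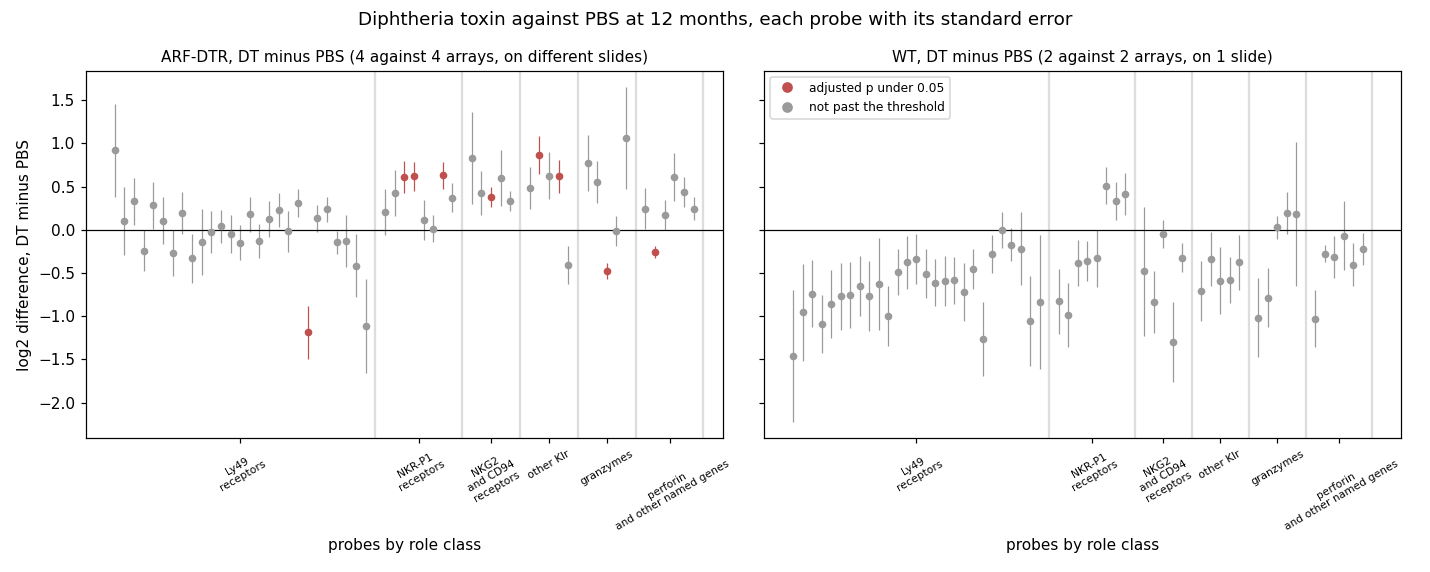
Log2 difference between DT and PBS at 12 months for each kept probe, with its standard error, by role class, in ARF-DTR mice on the left and WT mice on the right. Red points passed an adjusted p of 0.05. In ARF-DTR mice 9 points are red and lie on both sides of 0, and in WT mice none is red and 50 of the 56 points lie below 0.

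The difference between the 2 DT responses was tested as an interaction, and no member passed, while 1.95% of all probes did. Only the ARF-DTR PBS group of this test lay on slide 1, so slide and genotype-specific DT response cannot be told apart in it. At an unadjusted p under 0.05 limma had 21 members higher in ARF-DTR than in WT and 1 lower. The share of all probes at that limit was not counted, so this count has no background. The smallest adjusted p was that of Klrg1, 1.20 ± 0.32 (SE; limma adjusted p = 0.0765). Gzma differed by 1.80, with a 95% interval of 0.59 to 3.01 (limma adjusted p = 0.107), and Ncr1 by 1.28 (limma adjusted p = 0.111). With another background correction 16 members passed, all higher, but the share of all probes under it is not given here. Without replicate 1 of the WT DT group 2 passed, and without replicate 3 or 4 of the ARF-DTR PBS group 1.

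ARF-DTR mice given DT were also set against the WT mice on the same slide, where genotype and slide row go together. Against WT with DT no member passed (1.18% of all probes did). Limma had 2 members higher and 1 lower at an unadjusted p under 0.05, a limit at which all probes were not counted. The smallest adjusted p was 0.0946, for a Klrc1 probe at 1.46 that was well above background on neither WT array. Against WT with PBS 1 of 56 passed, where 4.72% of all probes did and 1.87% were higher: Klrb1b A_55_P2106681 was higher by 0.84 ± 0.19 (SE; limma adjusted p = 0.0254). It read -2.91, -3.17, -3.11 and -2.44 in ARF-DTR with DT and -3.77 and -3.72 in WT with PBS, and it did not pass without either WT sample.

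The remaining pairs crossed slides, so slide and group cannot be told apart in them. ARF-DTR mice at 12 months with DT had 22 members lower and 3 higher than the 2-month mice, against 13.9% and 12.8% of all probes. Of the Ly49 probes 18 of 27 were lower, Klra12 by 1.35 ± 0.24 on the log2 scale (SE; limma adjusted p = 0.00131). Ncr1 and Prf1 were also called lower, with group means of -3.20 and -0.50 with DT and -2.40 and -0.02 at 2 months. Gzmk A_55_P2042331 read -0.58, -1.31, -0.19 and 0.15 with DT and was 4.35 higher, Klrg1 was 0.68 and Klrb1b A_55_P1964325 0.57 higher. The other Gzmk probe, A_66_P140238, went the opposite way. It was called lower, with a difference of -0.40 and no overlap of the groups. This comparison shares the 2-month samples with the age comparison, so the 2 are not independent. Without replicate 2 of the 2-month group 13 passed (20.4% of all probes), and without replicate 1 or 4 of the DT group 15 (22.4% and 20.1%).

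ARF-DTR mice with PBS had 11 members lower and 2 higher than WT mice with PBS, against 11.3% and 9.59% of all probes. The 2 higher ones were Gzmk A_66_P140238 (0.75) and Klrb1b A_55_P2106681 (0.83). Gzma was lower by 1.42 on the log2 scale (limma adjusted p = 0.024), Klrb1c A_55_P1979147 differed by -1.34 (limma adjusted p = 0.0128) and Ncr1 by -1.08 (limma adjusted p = 0.0186). The 2 WT values of Gzma lay above all 4 ARF-DTR values. The age comparison uses the same PBS samples. Neutrophil markers had a median of -1.13 with 2 of 12 probes lower, B cell markers -0.49 with 3 of 10 lower, platelet markers -0.95 with none of 10 called and epithelial markers -0.29 with 4 of 16 lower. Summed log2 levels were 7.74 to 8.26 in ARF-DTR and 8.71 to 8.84 in WT for neutrophil markers, and 4.53 to 5.33 and 5.50 to 5.64 for B cell markers. The part of these cells was not tested. Without either WT sample 1 member passed, without replicate 3 of the ARF-DTR PBS group 7 and without its replicate 4, 25.

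Across the 12-month groups the Gzmk probe A_55_P2042331 kept a level well above that of the 2-month group. Its mean was -4.83 ± 0.62 at 2 months (SD, n = 4), -1.54 ± 1.49 in ARF-DTR with PBS (n = 4), -0.48 ± 0.63 in ARF-DTR with DT (n = 4), -1.64 ± 0.12 in WT with PBS (n = 2) and -1.45 ± 0.12 in WT with DT (n = 2). The ARF-DTR PBS values overlapped those of every other 12-month group, and the ARF-DTR DT values lay above those of both WT groups. The 2 WT groups did not overlap, with a difference of 0.18 that did not pass (limma adjusted p = 0.958). On the other Gzmk probe, A_66_P140238, ARF-DTR mice with DT were instead lower than the 2-month mice (-0.40), across slides. For Ncr1 the order of group means, from the highest, was WT with PBS (-2.37), ARF-DTR at 2 months (-2.40), ARF-DTR with DT (-3.20), WT with DT (-3.40) and ARF-DTR with PBS (-3.45). The first pair differed by less than its spread, as did the last 3.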

How the data were processed

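RNA from 16 lung samples, carrying the Cy3 dye, was measured on 1-colour Agilent arrays. Per the file headers and the submitters' processing notes, the authors' scans were read with Agilent Feature Extraction 10.10.1.1, which gave a background-corrected intensity for each spot. A series table of log2 values was also deposited by the authors, and it matched the scaling used here (its medians per array lay between -3.71 and -3.47). Control and outlier spots were dropped, replicate spots averaged, and log2 intensity minus the 75th percentile of the array was analysed. limma 3.58.1 (R 4.3.3) was fitted to 37046 probes over all 16 arrays and 5 groups, with Benjamini-Hochberg adjustment and a threshold of 0.05.

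On simulated data for the age comparison the fit recovered 48% of 1.5-fold, 81.5% of 2-fold and 91% of 3-fold changes. The members and lists were chosen with earlier results of these data known. Members past the threshold are named for the age effect, both DT effects and the genotype difference with DT, with the 2 brightest probes of each role class. Members named in other comparisons were chosen after their values were seen. Partner lists name up to 4 called genes per comparison. For cytokines and transcription factors with DT in ARF-DTR mice, every called gene is named. Positions are mm9, from the array files. Promoters are RefSeq, GRCm38.p6. Same-numbered samples did not deviate together (correlations of -0.17 to 0.31), so numbers were not used as pairs. The number of arrays limits the precision. Alternatives were other scalings, background corrections, filters, fits and omitted samples.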

Additional observations from a re-analysis of the deposited data

How the results depend on the processing

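The count of members called with age was 22. It became 5 with no filter on dim probes, 4 with only the groups compared in the fit, and 1 to 25 when 1 sample was left out. It lay between 15 and 27 under the other scalings, the normexp background correction, the authors' series table, the stricter filter and the brightest probe per gene. With the replicate number as a block, 6 members passed with age, 1 in the interaction and 7 between ARF-DTR and WT with PBS; the block changed no other count by over 1.5 times.

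The DT count in ARF-DTR mice (9) became 18 with each array's median subtracted, 21 with normexp, and 4 to 13 with 1 sample left out. ARF-DTR against WT, both with PBS (13), became 21 with the median subtracted, 32 with normexp, 4 with only the groups compared and 1 to 25 with 1 sample left out. The interaction (0) became 16 with normexp and 0 to 2 with 1 sample left out, and DT in WT (0) gave 0 to 1. ARF-DTR against WT, both with DT (0), became 8 without the filter. ARF-DTR with DT against WT with PBS (1) became 2 with the filter on all 16 arrays, 0 with the brightest probe per gene and 0 to 1 with 1 sample left out. With only those groups fitted the 1 call was lower, not higher. ARF-DTR with DT against 2 months (25) gave 13 to 28. Shares of all probes under the settings of this section are not given here. The cause of each change was not tested. Of the members named for the age effect and for DT in ARF-DTR mice, none past the threshold changed direction. With age, Klrb1b A_55_P1964325, Klrg1 and both Nkg7 probes, which did not pass, lay on either side of 0 across settings.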

Other observations

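Type 2 innate lymphoid cells share development steps with natural killer cells. Of 12 probes for their markers 4 were higher at 12 months with PBS than at 2 months, where 2.16% of all probes were. These 4 were Icos on 2 probes (0.84 and 0.83), Il2ra (0.64) and Il17rb (0.74). No probe for Arg1, Il1rl1, Calca, Areg or Rora, also on the list, was called. Of the 12 probes 6 were positive, and the median was -0.04. Mast cell and basophil markers had none of 10 probes called with age, and red blood cell, platelet, neutrophil and macrophage markers had none either, at limma's adjusted p of 0.05.

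With DT in ARF-DTR mice, on different slides, 5 of 16 cytokine probes were higher and 1 lower, where 14.3% of all probes were higher and 11.5% lower. Csf2 (0.93), Il12b (1.02), Tgfb1 (0.46), Ccl5 (0.67) and Il18 (0.53) were the higher ones, and Il12a, which encodes the other subunit of interleukin-12, was lower (-1.21; limma adjusted p = 0.000484). Of 22 transcription factor probes 4 were lower, Klf2 (-0.44), Zeb2 (-0.35), Prdm1 (-0.41) and Ikzf3 (-0.56), and Id2 was higher (0.37). The second Zeb2 probe was not called, with values of -1.58 to -1.42 with PBS and -1.54 to -1.46 with DT. Slide and DT cannot be told apart in these values. In WT mice, on 1 slide, none of these cytokine or transcription factor probes passed.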
